A study of Mus musculus with 13 samples.

Results

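The transcripts described here are the genes of the table whose symbol starts with 4930 and ends with Rik, and that reached 1 or more in no fewer than 2 of the 4 deposited columns. They number 138 of the 348 symbols of that form, and 138 of the 14240 genes of the whole table that met the same rule, out of 23235 genes listed. The members were thus selected on the measured values themselves. The null columns took part in that choice: 119 members were at 1 or above in both null columns and 71 in both WT columns. Of the members, 19 were below 1 in both WT columns and were kept because both null values reached 1. Of these, 17 are noncoding and 2 coding, while the 3 members below 1 in both null columns are all coding. Counts of higher and lower members below describe the chosen transcripts, and nothing is supported with them.

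A symbol of this form is a clone name from the RIKEN mouse cDNA project, and the 4930 prefix marks clones from an adult testis library. The name says where a transcript was first cloned, not what it does. Many such clones have since received gene names because they encode proteins of spermatocytes, meiosis or cilia, while others are spliced and polyadenylated transcripts with no long open reading frame, which are classed as long noncoding RNAs. MTR4 is the helicase that hands nuclear RNA to the exosome, the nuclear 3′ to 5′ RNA-degrading complex, and RNAs such as promoter-upstream transcripts, enhancer RNAs and many long noncoding RNAs are known substrates of that pathway.

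The libraries were poly(A) RNA libraries prepared by Smart-seq2, which primes cDNA on the poly(A) tail of small amounts of RNA. Each held 10 nuclei or 10 cytoplasms of mouse oocytes, taken apart by micromanipulation. WT nuclei had 2 libraries at day 14 and 3 at day 21, WT cytoplasms had 2 at day 14 and 2 at day 21, and MTR4-null nuclei and cytoplasms had 2 each, all at day 21. The strain, the deleted allele and how it was deleted are not given in the sources used here. The table holds 1 column per genotype and compartment. The WT columns name no day, so genotype and age cannot be told apart in any comparison of null with WT. No column has a replicate, so no difference below has a replicate check, and no p-value or error could be given. Fewer oocyte parts in a library and less RNA per part cannot be told apart either.

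The column totals ran from 594034 to 6637350, and read depth is unknown, so the columns are not on 1 scale. Differences are therefore given relative to the median gene: the divisor of a column was the median, over genes, of its ratio to the geometric mean of the columns, 1 was added, and log2 values were subtracted. A difference of at least 2-fold on that scale is called higher or lower. It understates the change of low genes and says nothing of total RNA. Skiv2l2, the gene of MTR4, had nuclear values of 13.3 (WT) and 3.54 (null) and cytoplasmic values of 187 (WT) and 4.36 (null), lower in null in both compartments. All 12 oocyte marker genes were at 1 or above in every column and together made up 1.77% to 3.38% of each column. Of 12 granulosa cell markers, 3 were at 1 or above in each nucleus column, and 10 (WT) and 12 (null) in the cytoplasm columns, at 0.00146% to 0.00879% of a column. Their cytoplasmic medians were 7.22 (WT) and 11.5 (null), where those of the members were 13.5 and 11.2. Inha stood at 253, Cyp19a1 at 78.0 and Nr5a2 at 61.9 in the WT cytoplasm, the highest granulosa values there. Of 16 spermatid and spermatocyte markers, 2 (WT) and 6 (null) reached 1 in the nuclei and 7 (WT) and 8 (null) in the cytoplasms, and their summed share ran from 0.00335% to 0.0112%. Of the latter list Tnp1, Acr, Pgk2 and Smcp were at 0 in all 4 columns, whereas Ldhc stood at 427, Prm2 at 243, Odf1 at 22.9, Gapdhs at 17.4 and Spaca1 at 14.4 in the WT cytoplasm, and Tssk6 at 35.6 in the null cytoplasm. The part of RNA from other cell types in the results below was not tested.

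All 138 members had an entry in RefSeq. Of these, 60 are protein-coding genes and 78 are noncoding, with 76 long noncoding RNAs and 2 transcribed pseudogenes. The rule retained 53.6% of the 112 coding symbols of the series and 33.2% of the 235 noncoding ones, while 1 symbol was unmatched. Of the 210 symbols outside the rule, 107 were at 0 in all 4 columns. RefSeq has renamed 43 members, 36 of them coding. Among these are Meikin (4930404A10Rik), which protects cohesin at centromeres in the first meiotic division, Meiob (4930528F23Rik), a single-stranded DNA binding protein of meiotic recombination, Armc12 (4930511I11Rik), a gene of sperm mitochondrial sheath formation, and Particl (4930414L22Rik), an antisense RNA of the Mat2a locus.

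Promoters of 4 members are shown because these members had some of the largest differences between null and WT and differ widely in CpG content. Each run is the RefSeq promoter on GRCm38.p6, from 250 bases before to 50 after the gene's start, read 5′ to 3′ on the gene's strand, with CpG dinucleotides in capitals. 4930405P13Rik (chr11:88905678-88905977, plus strand) and 4930562C15Rik (chr16:4835166-4835465, plus strand) hold 1 CpG each. The noncoding 4930413G21Rik (chr7:122970410-122970709, minus strand) holds 28, and 4930588N13Rik, now Tex26 (chr5:149439410-149439709, plus strand), holds 15.
4930405P13Rik: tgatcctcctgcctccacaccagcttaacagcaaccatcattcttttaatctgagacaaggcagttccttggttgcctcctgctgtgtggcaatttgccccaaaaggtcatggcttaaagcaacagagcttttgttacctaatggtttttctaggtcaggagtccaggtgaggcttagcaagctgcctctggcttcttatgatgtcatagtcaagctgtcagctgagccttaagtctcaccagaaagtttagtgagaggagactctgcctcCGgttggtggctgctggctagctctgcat
4930562C15Rik: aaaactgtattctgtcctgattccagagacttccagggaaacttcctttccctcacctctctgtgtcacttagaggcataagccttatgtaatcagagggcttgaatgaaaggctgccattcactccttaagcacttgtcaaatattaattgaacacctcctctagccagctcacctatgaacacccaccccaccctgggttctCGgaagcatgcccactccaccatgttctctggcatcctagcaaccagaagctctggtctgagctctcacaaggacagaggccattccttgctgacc
4930413G21Rik: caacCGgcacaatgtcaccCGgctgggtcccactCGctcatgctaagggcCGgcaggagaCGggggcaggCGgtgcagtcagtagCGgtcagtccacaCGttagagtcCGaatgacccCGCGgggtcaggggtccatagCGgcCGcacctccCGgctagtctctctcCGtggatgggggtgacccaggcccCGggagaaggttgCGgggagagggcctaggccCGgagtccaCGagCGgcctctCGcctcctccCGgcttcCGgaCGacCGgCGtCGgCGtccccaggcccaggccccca
4930588N13Rik: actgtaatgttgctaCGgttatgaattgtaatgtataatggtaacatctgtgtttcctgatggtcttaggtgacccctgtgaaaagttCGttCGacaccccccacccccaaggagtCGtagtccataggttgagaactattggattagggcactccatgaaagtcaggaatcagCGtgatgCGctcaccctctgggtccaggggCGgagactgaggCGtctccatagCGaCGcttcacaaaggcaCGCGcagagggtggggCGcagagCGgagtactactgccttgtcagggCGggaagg
The first 3 were higher in the null nucleus and Tex26 was lower, with the values given below.

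A RefSeq promoter was found for 108 members. Their median was 9.5 CpG per 300 bases, against 20 over the 10017 promoters of all genes that met the rule and 7 over all 27025 promoters in the set. The share with at least 10 CpG was 50% among members, 76.5% among genes that met the rule and 43.9% among all promoters. Coding members had a median of 9 and noncoding members 10, so the classes were close. Members higher in the null nucleus had a median of 14 (48 promoters), those lower had 8 (15 promoters), and those between had 9 (45 promoters). Across the 108 genes the Spearman correlation of CpG number with the nuclear difference was 0.20. The genes share the same 2 columns and are not replicates. The values of those columns also helped to choose the members. Nothing is therefore read from the correlation or from the medians by nuclear call. The GC box GGGCGG, on either strand, was in 38.9% of member promoters, 60.4% of promoters of genes that met the rule and 35.9% of all promoters. CCAAT, on either strand, was in 35.2%, 39.2% and 37.9%, and TATAAA in 4.63%, 7.85% and 14.2%. Of the promoters printed above, Tex26 alone holds the GC box and CCAAT.

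The series as a whole was low in oocytes, and in the null columns 2 transcripts carried most of its signal. The median deposited value of the members was 1.20 for WT nuclei, 4.98 for null nuclei, 13.5 for WT cytoplasms and 11.2 for null cytoplasms. For all genes that met the rule the medians were 5.04, 13.04, 58.7 and 39.3. Together the members made up 0.236% of the WT nucleus column and 0.821% of the null nucleus column, 0.182% of the WT cytoplasm and 0.365% of the null cytoplasm. The top 2 transcripts of a column held 40.5% (WT) and 72.3% (null) of the members' nuclear sum, and 24.3% (WT) and 55.7% (null) of their cytoplasmic sum. The larger summed share of the null columns thus rests in good part on single transcripts.

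The transcript with the highest mean was 4930405P13Rik, a long noncoding RNA named Scpep1os because it lies opposite the carboxypeptidase gene Scpep1. Its nuclear values were 446 (WT) and 6832 (null), and its cytoplasmic values 96.0 (WT) and 4994 (null). Both null columns were above both WT columns, by 2.84 (log2, relative) in the nucleus and 6.56 in the cytoplasm. It was also the member with the largest nuclear excess in WT oocytes, 5.80 over the cytoplasm, which was 2.09 in null oocytes.

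The noncoding 4930470H14Rik had a like order of columns at a lower level. Its nuclear values were 105 (WT) and 1192 (null), and its cytoplasmic values 24.2 (WT) and 193 (null). It was higher in null by 2.41 (nucleus) and 3.72 (cytoplasm), and its nuclear excess was 5.56 in WT and 4.25 in null. As deposited the nuclear excess of 4930470H14Rik was 2.07 in WT and 2.62 in null. That of 4930405P13Rik was 2.21 in WT and 0.45 in null, the latter under 2-fold.

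The protein-coding 4930562C15Rik had nuclear values of 79.3 (WT) and 1453 (null) and cytoplasmic values of 1398 (WT) and 1118 (null). It differed between genotypes by 3.10 in the nucleus and by 0.58 in the cytoplasm, a cytoplasmic difference that is −0.32 as deposited. The null nucleus lay 2.01 above the null cytoplasm, a difference of 0.38 as deposited, whereas the WT nucleus was 0.50 below the WT cytoplasm on the relative scale (−0.50).

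The other transcripts among the 10 with the highest mean had their highest deposited value in the WT cytoplasm, the column with the largest total. On the relative scale each of them differed by less than 2-fold between the WT compartments. 4930451I11Rik, a coding gene, stood at 90.4, 236, 1530 and 528 in the WT nucleus, null nucleus, WT cytoplasm and null cytoplasm, in that order, which also holds for lists of 4 values below. The noncoding 4930564K09Rik, now Rbm46os, stood at 121, 192, 1220 and 327. Neither reached a 2-fold difference between null and WT on the relative scale. The coding 4930453N24Rik stood at 61.1, 79.7, 715 and 362, and 4930432K21Rik, also coding, at 31.7, 76.6, 599 and 180. Platr14 (4930500J02Rik), a noncoding RNA first named for its expression in pluripotent cells, stood at 32.6, 115, 433 and 201, and all 3 differed by less than 2-fold between genotypes on that scale. Ccdc181 (4930455F23Rik), a coiled-coil protein gene, stood at 22.3, 36.3, 379 and 95.8 and was lower in the null cytoplasm by 1.07 (−1.07). Tex26, a testis-expressed gene, had the largest loss of this group and is described with the coding members.

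**Figure D1:**
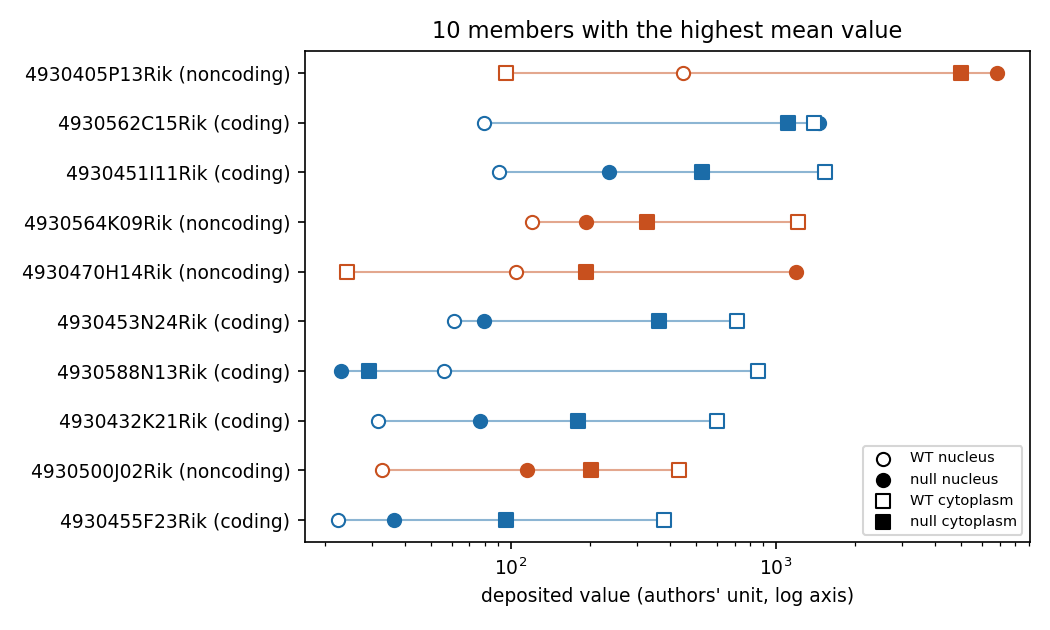
Deposited values of the 10 members with the highest mean, on a log axis, with open symbols for WT, filled symbols for null, circles for nuclei and squares for cytoplasms, and colour for coding or noncoding; each point is 1 column, with no replicates. 4930405P13Rik and 4930470H14Rik have their lowest point in the WT cytoplasm, whereas most others have their highest point there, in the column with the largest total.

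The members were counted by class, with the reserve that the rule itself kept more noncoding than coding members through their null values (17 against 2). In the nucleus 62 members were higher in null and 19 lower, 44.9% and 13.8% of the members, where 25.8% of all genes that met the rule were higher and 16.2% lower. Of the 78 noncoding members 48 were higher and 4 lower, with a median difference of 1.52, and of the 60 coding members 14 were higher and 15 lower, with a median of −0.23. The median of all genes that met the rule was 0.055. Since the null columns helped to choose the members, nothing is read from these shares.

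In the cytoplasm 58 members were higher in null and 28 lower, 42% and 20.3%, where 24.2% of all genes that met the rule were higher and 18.6% lower. Of the noncoding members 42 were higher and 7 lower (median 1.16), and of the coding members 16 were higher and 21 lower (median −0.63). The choice of members limits these counts in the same way.

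The balance of higher and lower members moved with the scaling. Dividing a column by 1 factor moves all its genes together, and quantile scaling keeps their ranks within a column. The order of the classes could therefore hardly change, and nothing is read from it. As deposited, 84 members were higher and 10 lower in the null nucleus, where 46.3% and 3.69% of all genes were, and 47 were higher and 51 lower in the null cytoplasm, where 14.9% and 43.7% were. After quantile scaling the nuclear counts were 53 and 32, against 21.2% and 21.5% of all genes, and the cytoplasmic ones 49 and 39, against 20.2% and 22.5%. With factors read from the digits of the values, the nuclear counts were 47 and 44, against 15.4% and 43.2%. The cytoplasmic ones were then 64 and 29, against 29.2% and 18.3%. They rest on a factor of 0.5 for the null cytoplasm that its digits do not settle, since 100% of its values fit with or without it. On these 3 scales, in that order, 58, 41 and 38 noncoding members were higher in the null nucleus and 1, 9 and 13 lower, and 36, 36 and 47 were higher in the null cytoplasm and 18, 11 and 8 lower. The median of the noncoding members was above 0 on each of the 4 scales in both compartments. That of the coding members was below 0 on each, except as deposited in the nucleus, where it was 0.66.

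Genes outside the series, chosen by the same rule on the null and WT columns, were counted in the same way. Of 886 other noncoding genes that met the rule, 483 were higher in null and 105 lower in the nucleus (median 1.20), and 388 were higher and 113 lower in the cytoplasm (median 0.75). Of 12984 other coding genes, 3042 were higher and 2131 lower in the nucleus, and 2914 higher and 2471 lower in the cytoplasm. The 1700-series, another set of RIKEN testis clones, had 161 members of 390 symbols. Of its 78 noncoding members 49 were higher and 4 lower in the null nucleus, and of its 82 coding members 25 were higher and 12 lower. In the third clone series in the plot of shares by class, 19 of 29 noncoding members were higher and 2 lower, and of its 24 coding members 10 were higher and 2 lower, all in the nucleus. Null values helped to choose the genes of every list, so neither a likeness nor a difference between the lists is read from these counts.

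A rule that asks for a value of at least 1 in both WT columns keeps 71 members. It does not use the null columns, but it removes genes low in WT, which by itself moves counts toward lower in null. Of the 27 noncoding members kept, in the nucleus 11 were higher in null and 2 lower (40.7% and 7.41%), and of 496 other noncoding genes kept by that rule 41.9% were higher and 19% lower. Of the 44 coding members kept, 4 were higher and 14 lower (9.09% and 31.8%), where 15.1% and 19.8% of 10026 other coding genes were. In the cytoplasm 11 noncoding members were higher and 5 lower (40.7% and 18.5%), where 36.1% and 21% of the other noncoding genes were. There, 6 coding members were higher and 19 lower (13.6% and 43.2%), where 16.8% and 23.1% of the other coding genes were. With this rule the members as a whole were 15 higher and 16 lower in the nucleus, and 17 higher and 24 lower in the cytoplasm. Of all 10712 genes kept by this rule, 16.4% were higher and 19.9% lower in the nucleus, and 17.8% higher and 23.1% lower in the cytoplasm.

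**Figure D2:**
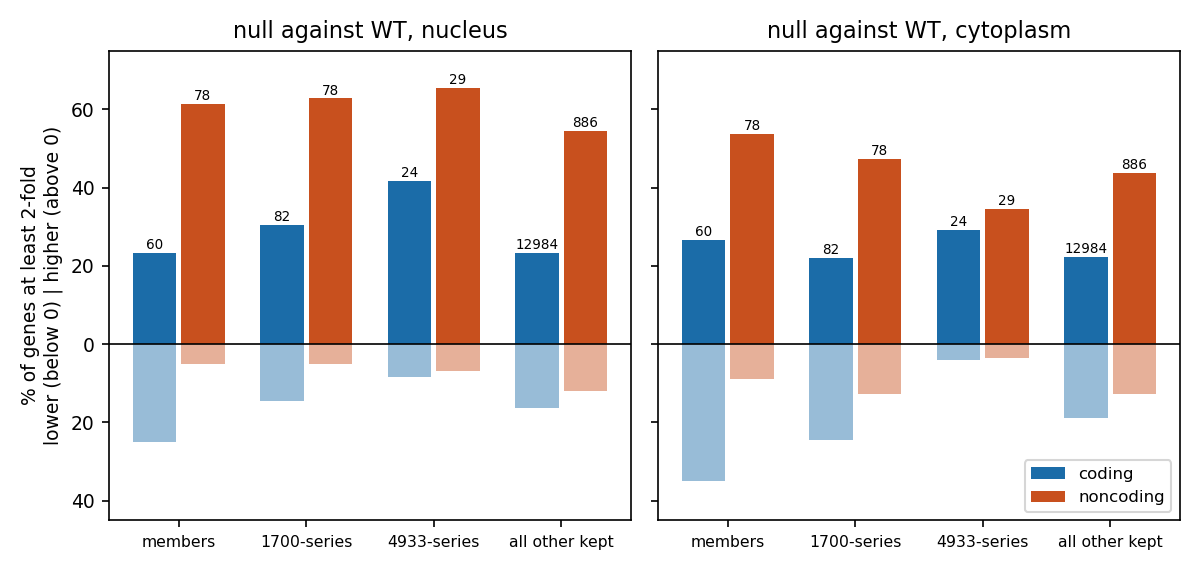
Percent of genes at least 2-fold higher and at least 2-fold lower in null than in WT (relative to the median gene) in the nucleus and the cytoplasm, with coding and noncoding bars for the members, for the other clone series described in the text and for all other genes that met the rule. In each list the noncoding bar is taller on the higher side than the coding bar.

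Of the 107 members at least 2-fold apart in either compartment, 47 were higher in null in both, 37 of them noncoding, and 11 were lower in both, 10 of them coding. Those are 34.1% and 7.97% of the members, where 16.4% and 8.42% of all genes that met the rule were higher or lower in both. Members below 1 in both WT columns had to reach 1 in both null columns, so the rule favours calls of higher in both. A further 2 members were higher in null in 1 compartment and lower in the other. The compartments were separate columns, but the way each WT column was made up is not known.

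Among the noncoding members with the largest nuclear difference was 4930413G21Rik, which lies opposite Rbbp6, a gene for a ubiquitin ligase that binds p53. It stood at 0.209, 22.3, 4.16 and 59.8, and was higher in null by 4.46 in the nucleus and 3.92 in the cytoplasm. 4930599N23Rik stood at 0.239, 13.5, 5.93 and 22.2, with differences of 3.67 and 2.26. Both null values of these transcripts were above both WT values. 4930444M15Rik stood at 0.312, 13.1, 5.23 and 11.6 (3.44 in the nucleus, 1.54 in the cytoplasm). 4930563M20Rik stood at 0.1248, 7.05, 2.61 and 30.1 (3.15 and 3.30), and 4930429F24Rik at 0.0440, 5.26, 0.205 and 4.04 (3.09 and 1.59). In the WT nucleus all 5 were below 1. 4930426L09Rik was listed at 0 in both WT columns and stood at 5.96 in the null nucleus and 20.4 in the null cytoplasm, so no fold is given.

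Some noncoding members stood out in the cytoplasm. 4930579K19Rik stood at 0.580, 12.3, 3.55 and 112 and was 4.92 higher in the null cytoplasm, next to 4930405P13Rik among all members. 4930547E08Rik stood at 1.47, 6.30, 2.91 and 31.6 (3.30), and 4930412B13Rik at 0.0540, 1.71, 0.557 and 18.5 (3.24). The null cytoplasm was the highest column for all 3. Noncoding members lower in null were few: 4930455C13Rik stood at 1.42, 1.66, 91.9 and 7.15 (−2.50 in the cytoplasm), and 4930593A02Rik at 2.97, 0.6997, 38.1 and 2.64 (−2.31 in the cytoplasm, −2.42 in the nucleus).

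Coding members higher in null were in part very low in WT. Tex38 (4930544O15Rik), a testis-expressed gene, was listed at 0 in WT nuclei and stood at 8.95 in null nuclei, with cytoplasmic values of 0.972 (WT) and 3.94 (null). 4930564D02Rik stood at 0.326, 12.5, 1.23 and 10.9 (3.35 in the nucleus, 2.35 in the cytoplasm), and 4930563E22Rik at 0.0568, 6.61, 0.576 and 9.49 (3.33 and 2.39). Both null values were above both WT values in all 3. In the cytoplasm 4930519G04Rik stood at 3.90, 24.995, 23.7 and 147 (3.36), and 4930550L24Rik at 1.29, 2.19, 5.68 and 70.7 (3.89), the latter with a nuclear difference of −0.27.

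Among the coding members lower in null, Tex26 stood at 56.0, 22.9, 861 and 29.4 and was lower by 2.35 in the nucleus (−2.35) and 3.89 in the cytoplasm (−3.89). 4930524B15Rik stood at 7.95 (nucleus) and 115 (cytoplasm) in WT and was listed at 0 in both null columns, so no fold is given. Lypd9 (4930504O13Rik), of the Ly6 and uPAR domain family, stood at 15.7, 2.61, 257 and 43.0 (−3.41 in the nucleus, −1.63 in the cytoplasm). These 3 were lower in null also as deposited. The names give no common direction: Tex38 was among the most raised members of the nucleus, and Tex36 (4930404H21Rik) stood at 3.17, 9.87, 18.7 and 9.53, with differences of 0.51 and −0.06.

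Meikin stood at 15.1, 9.97, 272 and 68.9, with a nuclear difference of −1.63 and a cytoplasmic one of −1.05. Its nuclear difference is −0.55 as deposited, which is under 2-fold. Meiob stood at 1.38, 0, 26.5 and 0.645 (−2.68 in the cytoplasm). Armc12 stood at 4.13, 5.18, 63.8 and 4.84 and was lower in the cytoplasm (−2.42), with a nuclear difference of −0.70 that is 0.27 as deposited. No spread between oocytes of 1 genotype is known for any of them, and the WT day is not known.

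Further coding members had their highest deposited value in the WT cytoplasm, the column with the largest total. Cldn34d (4930468A15Rik), of the claudin family of tight junction proteins, stood at 5.49, 7.23, 320 and 16.3, lower in the null cytoplasm by 3.24 (−3.24). Btg1b (4930525M21Rik), of the antiproliferative BTG family, had nuclear values of 2.61 (WT) and 0.276 (null) and a WT cytoplasmic value of 51.5, and was listed at 0 in the null cytoplasm. Klrb1 (4930431A04Rik), of the killer cell lectin-like receptor family, stood at 1.20, 2.14, 64.3 and 3.29 (−2.82). In all 3 the WT cytoplasm was the highest column, as deposited and on the relative scale. 4930503E14Rik stood at 6.80, 2.85, 89.5 and 7.58, lower in both compartments (−2.13 and −2.40). 4930550C14Rik stood at 20.2, 19.005, 254 and 131, and 4930558C23Rik at 19.95, 18.9, 203 and 63.0. Their nuclear differences, −1.16 and −1.14, passed 2-fold on the relative scale but were −0.085 and −0.072 as deposited, so they rest on the scaling. On the relative scale the WT nucleus minus the WT cytoplasm was −0.078 for 4930503E14Rik, −0.015 for 4930550C14Rik and 0.29 for 4930558C23Rik.

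**Figure D3:**
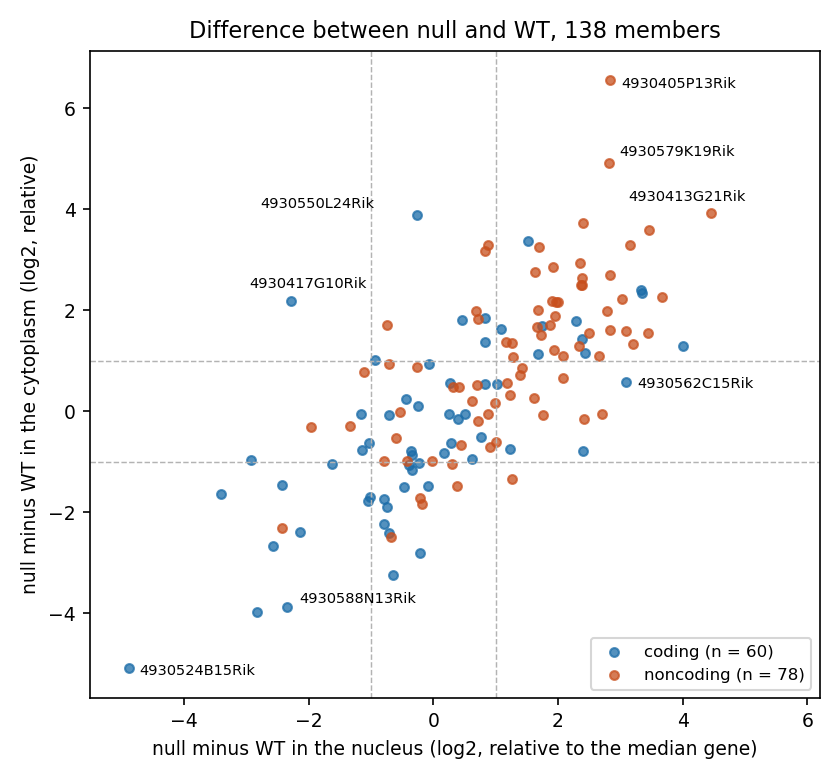
Difference between null and WT in the nucleus (horizontal) and in the cytoplasm (vertical) for the 138 members, on the log2 scale relative to the median gene, with coding and noncoding members in separate colours and dashed lines at 2-fold. Noncoding members lie mostly in the upper right, and coding members reach furthest into the lower left.

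The compartments were compared within each genotype. In WT oocytes 14 members were higher in the nucleus than in the cytoplasm and 14 lower, relative to the median gene, where 9.73% and 7.46% of all genes that met the rule were. In null oocytes 30 were higher and 15 lower, where 12.4% and 8.83% of all genes were. On the deposited scale 3 members were higher in the WT nucleus and 109 lower (all genes: 1.74% and 91.2%), and in null 7 were higher in the nucleus, with 76 lower (all genes: 2.91% and 71.9%). The nuclear columns have the smaller totals. Noncoding members split 9 higher and 9 lower in WT and 17 and 6 in null, and coding members 5 and 5 in WT and 13 and 9 in null. Of the members, 7 were higher in the nucleus in both genotypes and 1 was lower in both. Those are 5.07% and 0.725% of the members, near the 4.64% and 1.09% of all genes that met the rule.

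Nuclear excess was largest for long noncoding RNAs. After 4930405P13Rik and 4930470H14Rik came 4930511M06Rik, which stood at 6.21, 22.05, 0.221 and 5.14, with a nuclear excess of 4.45 in WT and 3.33 in null. 4930578E11Rik stood at 5.91, 85.5, 6.42 and 3.25, with an excess of 2.96 in WT and 5.72 in null. The WT excess of 4930578E11Rik is −0.10 as deposited. In its longest annotated transcript 3.31% of the 25-base words are shared with at least 100 other genes, and the part of reads from such genes was not tested. 4930594C11Rik, noncoding, stood at 0.609, 10.1, 0.513 and 4.36 (2.42 in null), and Lrrc74b (4930451C15Rik), a leucine-rich repeat protein gene, at 1.35, 16.5, 0.957 and 6.26 (2.197 in WT, 0.26 as deposited, and 2.71 in null).

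Lower values in the nucleus than in the cytoplasm were found in WT for Particl, 4930455C13Rik, Cldn34d, Klrb1 and 4930544G11Rik. Particl stood at 0.220, 5.12, 25.7 and 12.0, which gives −2.23 in WT and 0.36 in null. Cldn34d and 4930455C13Rik both had −2.17 in WT, and Klrb1 had −1.88. The WT nucleus was the lowest column for Particl, while its null compartments lay close to each other on the relative scale. 4930544G11Rik stood at 0.285, 0, 19.8 and 1.95 (−1.73 in WT). In null oocytes, among members with at least 5 in either compartment and above 0 in both, the lowest nuclear differences were those of 4930550L24Rik (−3.06), Fam228a (−2.23), Lypd9 (−2.17) and 4930412B13Rik (−1.51). The noncoding 4930556C24Rik was listed at 0 in the null nucleus and stood at 7.57 in the null cytoplasm.

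**Figure D4:**
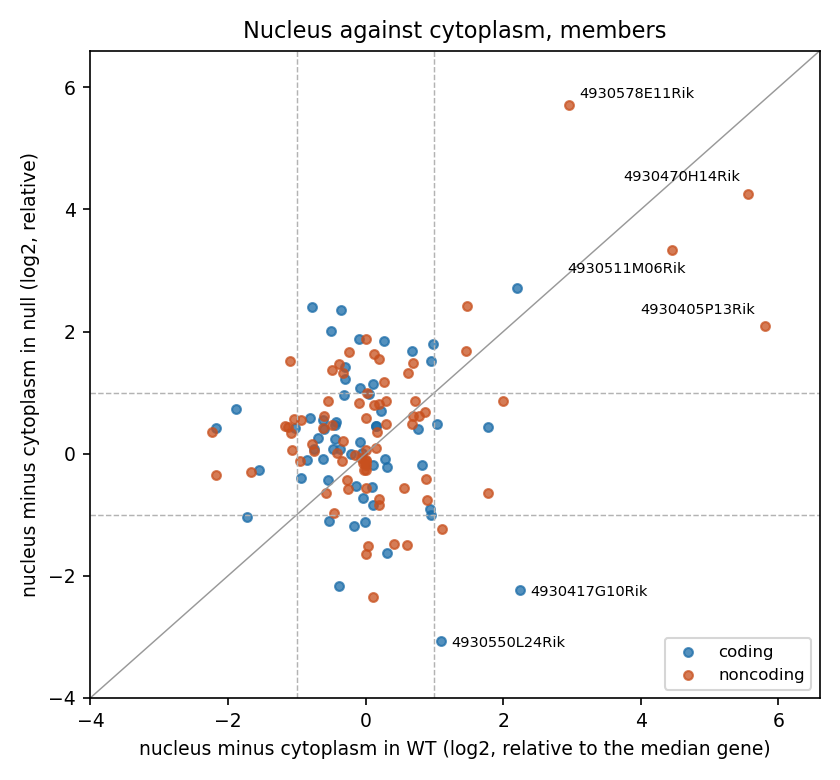
Difference between nucleus and cytoplasm in WT (horizontal) and null (vertical) for the 138 members, on the log2 scale relative to the median gene, with dashed lines at 2-fold and a diagonal of equal values. 4930405P13Rik and 4930470H14Rik lie far to the right at 5.80 and 5.56, and most members lie between the lines.

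The preparation is not stated to keep strand. Reads within exon bases that a member shares with a gene on the opposite strand may therefore come from either. An overlap of any length was counted, so the shared part of a transcript may be small. By GENCODE M21, 133 members have an annotated transcript. Of these, 45 overlap exons of a gene on the opposite strand and 9 of a gene on the same strand, while 80 overlap none. Of the 43 noncoding members with no overlap, 25 were higher and 2 lower in the null nucleus, and 24 were higher and 2 lower in the null cytoplasm. Of the 31 noncoding members with overlap, 20 were higher and 1 lower in the nucleus, and 15 higher and 5 lower in the cytoplasm. Of all genes that met the rule, coding and noncoding, 25.8% were higher and 16.2% lower in the null nucleus. In the null cytoplasm 24.2% were higher and 18.6% lower. The other noncoding genes, counted above, were also more often higher than lower. These members were chosen in part on their null values, so nothing is read from the counts with or without overlap. The part of overlapping genes was not tested.

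For 30 members the opposite-strand gene also met the rule, which gives 31 pairs. The member's nuclear difference lay above its partner's in 20 pairs and the cytoplasmic one in 22. The median nuclear difference was 1.09 for members and −0.20 for partners, and in the cytoplasm 1.02 and −0.016. Members were higher in null in 16 pairs in the nucleus, their partners in 7, and both in 5. Of all genes that met the rule, 25.8% were higher in the null nucleus. The partner had the higher WT nuclear value in 24 pairs, and the members had been chosen in part on their null values.

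Single pairs show the range. Scpep1, opposite 4930405P13Rik, stood at 65.1, 75.4, 923 and 332, with a nuclear difference of −0.88 and a cytoplasmic one of −0.57, below 2-fold and opposite in sign to its partner. Ube2d3, a ubiquitin-conjugating enzyme gene opposite the noncoding 4930539J05Rik, stood at 489, 481, 6436 and 3250 (−1.12 in the nucleus), while 4930539J05Rik stood at 1.24, 21.8, 28.5 and 66.0 (2.79). Med31, a Mediator subunit gene opposite 4930563E22Rik, stood at 58.5, 43.1, 784 and 291 (−1.52), where its partner had 3.33. On the relative scale members and partners differed in direction in these 3 pairs. The deposited nuclear values of Scpep1 were higher in null and those of Ube2d3 were close, so their direction rests on the scaling. Med31 was lower in the null nucleus as deposited too. Rbbp6, opposite 4930413G21Rik, stood at 2.52, 49.9, 24.2 and 189 and was higher in null by 3.08 and 3.69, as its partner was. Mat2a, the S-adenosylmethionine synthesis gene opposite Particl, stood at 15.8, 74.4, 335 and 206 and was higher in the null nucleus by 1.12, where Particl was higher by 2.43.

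**Figure D5:**
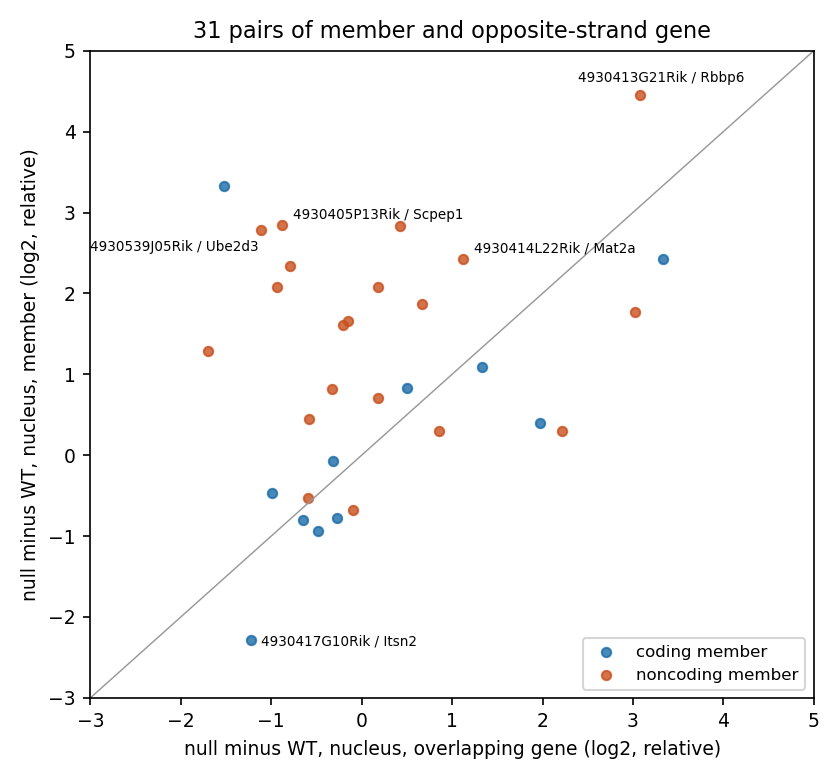
Nuclear difference between null and WT of the member (vertical) against that of the opposite-strand gene with overlapping exons (horizontal), on the log2 scale relative to the median gene, for 31 pairs, with the line of equal values. In 20 pairs the point lies above the line.

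The annotated transcripts of the classes differed in length. The median was 2000 bases for 59 coding members and 1222 bases for 74 noncoding ones. Noncoding members higher in the null nucleus had a median of 1348 bases (45 transcripts), those lower 1437 (3) and those between 1020 (26). Coding members higher there had a median of 2772 bases (14 transcripts), those lower 1431 (14) and those between 2366 (31). A canonical polyadenylation signal lay in the last 50 bases of 38 coding (64.4%) and 50 noncoding (67.6%) transcripts, so the classes were close in that feature. At the limit of the rule, the second highest value was 1.004 for 4930448F12Rik, 1.04 for 4930502A04Rik and 1.17 for 4930483O08Rik, all noncoding, and 0.936 for 4930564G21Rik, 0.946 for 4930568D16Rik and 0.999 for 4930406D18Rik just outside it.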

How the data were processed

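The 4 columns, 1 per genotype and compartment, were deposited by the authors under the name of FPKM and were treated here as a score, since they are not on 1 scale. Per the submitters' processing notes, the tools were TopHat2 2.1.1 and Cufflinks 2.2.1, with build mm9. Neither averaging nor scaling of libraries is described in the sources used here. The digits of the values (at most 7 once doubled) fit a factor of 0.125 in the WT nucleus (87.6% of values, 23.5% without it) and 0.5 in the null nucleus (97.6%, 74.6% without it), and the null cytoplasm may hold 1 library. For the null cytoplasm 0.5 was used as well, although 100% of its values fit with or without it.

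From these, genes with at least 1 in at least 2 columns were kept, and differences were taken on log2(value + 1) after division by 0.279 (WT nucleus), 0.594 (null nucleus), 3.47 (WT cytoplasm) and 1.85 (null cytoplasm), the median ratios over 13328 genes above 0 in all columns. Those of at least 2-fold were counted. Genes were named by rule: the 10 highest means; per comparison of null with WT, the 10 most raised and 10 most lowered with a value of at least 5; per comparison of compartments, 5 of each; and 3 on each side of the limit. With 1 value per group no test was run. RefSeq tables of GRCm38.p6 and GENCODE M21 gave classes, transcripts and promoters. Polyadenylation signals, exon overlaps and CpG were counted with Python 3.11.15 and pandas 2.3.3, and the counting steps were tested on simulated data. Alternatives were another pseudocount, filter or scaling. The members and lists were chosen with earlier results of these data known. Depth in reads is unknown.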

Additional observations from a re-analysis of the deposited data

Results flagged for a closer look

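In 4 members the difference passed 2-fold in opposite directions under the same contrast. None of these opposite differences was tested, since each column is 1 value. Fam228a (4930417G10Rik), which lies opposite Itsn2, had nuclear values of 5.34 (WT) and 1.87 (null) and cytoplasmic values of 11.3 (WT) and 34.04 (null). It was lower in the null nucleus (−2.28) and higher in the null cytoplasm (2.18), values that lie −4.465 apart. The nucleus was therefore above the cytoplasm in WT (2.24) and below it in null (−2.23), 4.465 apart, but as deposited it was below the cytoplasm in WT too (−0.96), so the WT side rests on the scaling. Itsn2 was lower in null in both compartments (−1.22 and −1.45), with deposited nuclear values of 22.4 (WT) and 20.1 (null) that lay close.

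The noncoding 4930447K03Rik stood at 0.160, 1.65, 8.16 and 0.584 in that order. It was higher in the null nucleus (1.26) and lower in the null cytoplasm (−1.35), 2.615 apart, and its nuclear difference from the cytoplasm was −1.09 in WT and 1.52 in null, −2.615 apart. Its values below 1 limit what can be read from this. The noncoding 4930515G01Rik, opposite Ankrd13a, stood at 1.48, 6.05, 6.69 and 46.7, with the nucleus above the cytoplasm by 1.11 in WT and below it in null (−1.23), 2.340 apart. 4930550L24Rik stood at 1.29, 2.19, 5.68 and 70.7, with 1.09 in WT and −3.06 in null, 4.160 apart. For 4930515G01Rik and 4930550L24Rik, the nucleus was below the cytoplasm in WT as deposited (−1.63 and −1.54), so the WT side rests on the scaling.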

How the results depend on the processing

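Counts below are of members at least 2-fold higher and lower. Those within 1.5 times of the reported ones are left out. No share over all genes stands beside the counts here, so a moved count is not read as particular to the members. As deposited, 10 were lower in the null nucleus and 51 in the null cytoplasm, 3 were higher and 109 lower in the nucleus against the cytoplasm in WT, and 7 and 76 in null. In that setting the WT nuclear excess reversed for 4930578E11Rik (−0.10) and 4930417G10Rik (−0.96). With the factors from the digits, 44 were lower in the null nucleus, 45 were lower in the WT nucleus than in its cytoplasm, and 7 were higher and 80 lower in null. The counts between null compartments rest on the factor of the null cytoplasm, which its digits do not settle. Quantile scaling gave 32 lower in the null nucleus. A pseudocount of 0.1 gave 24 higher and 25 lower between WT compartments. A pseudocount of 5 gave 38 and 11 in the null nucleus, 28 and 18 in the null cytoplasm, 6 and 5 between WT compartments and 19 and 5 between null ones. A minimum of 5 gave 38 and 9, 38 and 14, and 9 and 8 lower between WT and null compartments. No filter gave 23 higher between WT compartments. In settings chosen after seeing the data, members at 1 or above in both WT columns gave 15 higher in the null nucleus, 17 in the null cytoplasm, 9 higher and 5 lower between WT compartments and 17 and 8 between null ones. Members without exon overlap gave 34 higher in the null nucleus, 31 higher and 16 lower in the null cytoplasm, 5 and 5 between WT compartments and 19 higher between null ones. These last 4 settings have other numbers of members; elsewhere the cause was not tested. No paired analysis was possible because the columns carry no replicates, and none could be left out. Read depth is unknown.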
